A study of Sus scrofa with 6 samples.

Results

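The insulin-like growth factor (IGF) system of the porcine ovarian follicle was followed through the probe sets whose platform annotation gives 1 of 9 gene symbols and no other: the ligands IGF1 and IGF2, the receptors IGF1R and IGF2R, and the binding proteins IGFBP2, IGFBP3, IGFBP4, IGFBP5 and IGFBP6. A probe set is the group of short oligonucleotides on the array that reads 1 transcript or a group of related transcripts. Of the 9 genes, 7 were found among the 6765 genes that the annotation names, with 23 of the 24123 probe sets: 3 for IGF1, 13 for IGF2, 2 for IGF1R, 1 each for IGF2R, IGFBP2 and IGFBP5, and 2 for IGFBP6. No probe set carried the symbol IGFBP3 or IGFBP4, so these members were not analysed here. All 23 matched the RefSeq gene table of the assembly Sscrofa11.1 by gene identifier, and 0 symbols changed.

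The follicles came from prepubertal gilts, that is, female pigs before puberty, and were sorted by morphology and diameter. The samples comprised 6 single-colour Affymetrix arrays, 2 per stage, titled as biological replicates of primordial, middle stage and last stage follicles. No genotype, treatment or age beyond prepubertal is given, no agent is named for any stage, and pooling of follicles or animals is not described. Stage names here follow the titles, although a further description attached to all 6 samples calls them primordial. Whether replicates are of separate animals is not stated, so p-values cover only how far these samples spread, which may be technical, and 2 arrays per stage limit the precision.

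The labelled stages were checked against genes that mark the cells of a follicle, at 1 probe set per gene. The summed signal of 10 oocyte genes was 459 to 493 on the arrays labelled primordial, 20027 to 21758 in the middle stage and 882 on each last array. Of the 10, 9 had their lowest stage mean on the arrays labelled primordial. The oocyte genes PADI6 (3.2 and 3.3) and DPPA5 (4.9 and 6.3) were near 0 there, whereas GDF9, the brightest of the 10 there, had 137.3 and 150.6. The low oocyte signal on these arrays goes against that label. The summed signal of the 8 immune genes on the array of 10 was 17003 to 19708 there, against 1079 to 1501 in the middle stage and 1678 to 4313 in the last stage. CD53 was the brightest of the 8 there (7746.5 and 8074), and 0 of the 8 had their lowest stage mean there. PTPRC, dim on all arrays, had 47.5 and 49.9 there against 56.5 and 41.1 in the last stage. The arrays are therefore called "labelled primordial" below. Signals on arrays of 1 stage correlated across tested probe sets with Pearson's r of 0.955 to 0.973, and on arrays of different stages with 0.721 to 0.882, which describes the arrays only.

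IGF1 and IGF2 are small secreted hormones related to insulin that promote growth and survival of many cells. Both act through IGF1R, a receptor tyrosine kinase of the cell surface, whereas IGF2R, which is also the cation-independent mannose 6-phosphate receptor, takes IGF2 up for degradation and carries enzymes to lysosomes. IGF binding proteins hold the ligands in the extracellular fluid and can limit or prolong their action, and proteases that cut them release the ligand. In the ovary the system is known as an amplifier of the response of granulosa cells to follicle-stimulating hormone, and binding proteins are known to differ between growing and degenerating follicles.

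Values were compared as log2(signal + 16) in 1 limma fit over all 6 arrays. Probe sets with a mean signal under 91.3, the dimmest 40%, were left out of the tests. Of the 23 probe sets of the IGF system, 14 passed this filter, with at least 1 for each of the 7 genes on the array, and 9 did not. A probe set bright in only 1 stage can pass it, so the counts below describe the 14 tested and support nothing further. The value after each ± is the standard error from this fit (n = 2 arrays in every stage), and "called" means a Benjamini-Hochberg adjusted p under 0.05 over all 14399 probe sets tested. Over all of these the median of the difference was 0.22 (middle minus primordial), -0.07 (last minus middle) and 0.14 (last minus primordial), shifts that are not small beside some of the values below.

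Across the 3 comparisons the called differences of the members were mostly positive, that is, higher in the stage named first. For middle minus primordial 7 of the 14 tested probe sets (50%) were called, against 47.4% of all probe sets tested, and all 7 were higher in the middle stage (background 29.7% higher and 17.7% lower). For last minus middle the count was 3 of 14 (21.4%), against 17.2%, with 2 higher and 1 lower (background 7.29% and 9.94%). For last minus primordial it was 9 of 14 (64.3%), against 33.2%, and all 9 were higher in the last stage (background 19.8% and 13.4%). The first 2 shares are near the background. The third is above it, but its 9 probe sets represent only 4 genes, IGF1, IGF2, IGFBP5 and IGFBP6, and probe sets of 1 gene share a target. The arrays of the stages compared did not overlap for 10, 10 and 9 of the 14, against 76.7%, 60.2% and 69% of all probe sets tested. The median difference of the 14 was 0.67, 0.51 and 1.05. The comparisons share arrays, so these counts are not independent of each other.

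**Figure D1:**
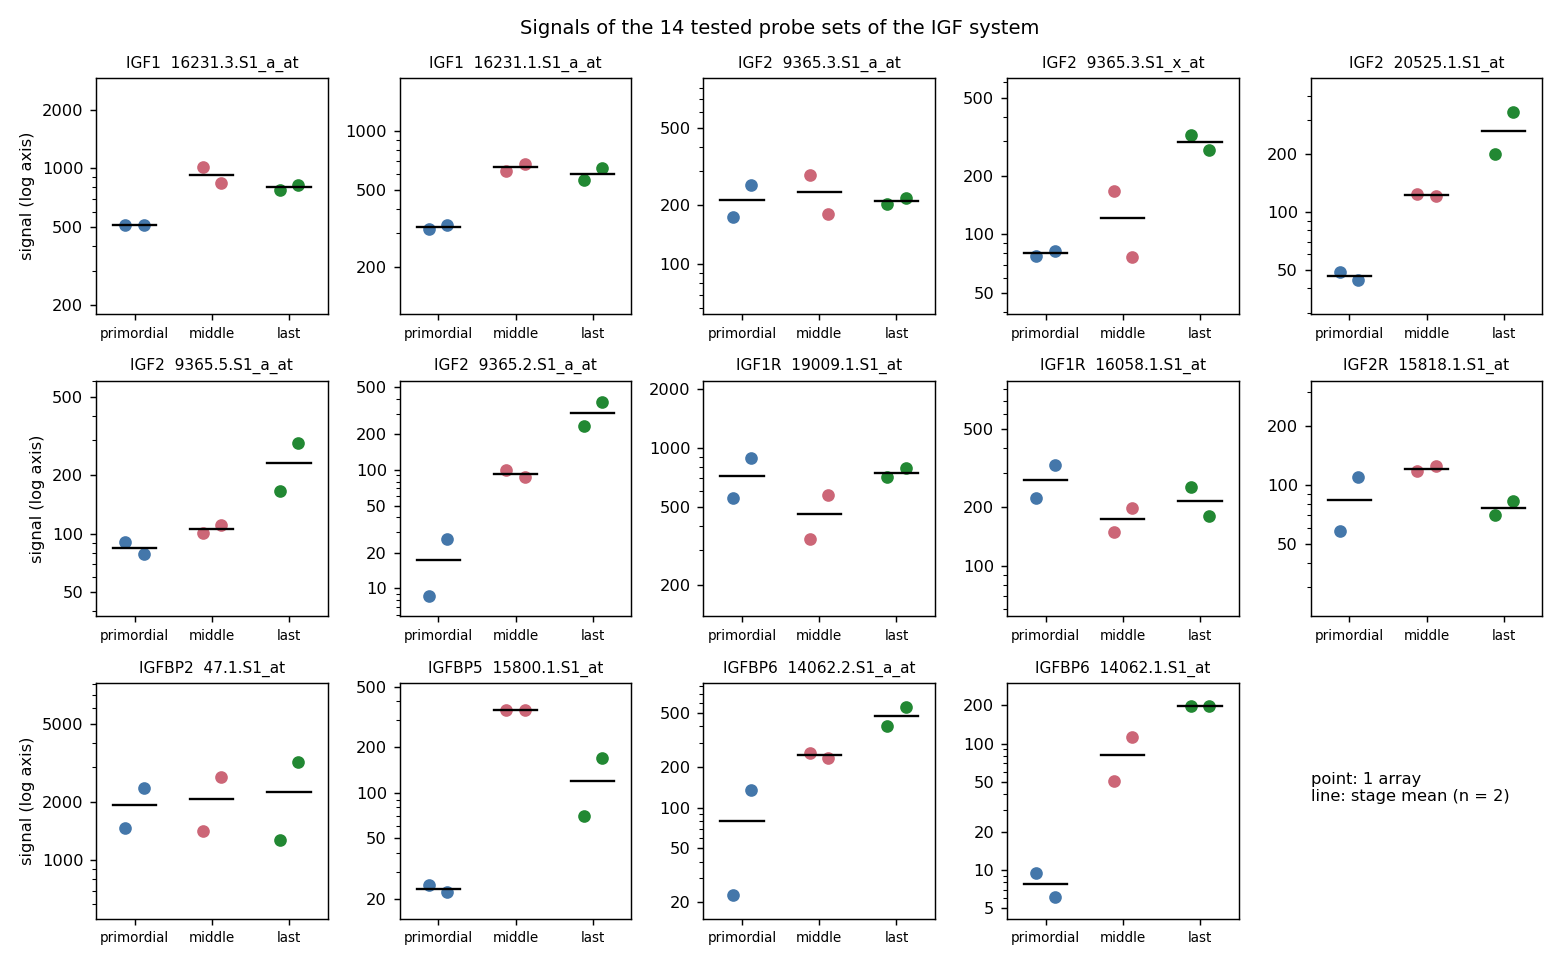
Signal (log axis) of each of the 14 tested probe sets on the 6 arrays, by labelled stage, with 1 point per array and a line at the mean of the 2 arrays. IGFBP5 stands highest in the middle arrays (350.9 and 349.6), while both IGFBP6 probe sets and 4 of the 5 IGF2 probe sets are highest in the last arrays; the array numbered 2 is the higher one for IGFBP2 in all 3 stages.

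IGF1, the ligand that in the follicle is known to act with follicle-stimulating hormone, was lower on the arrays labelled primordial than at both other stages. Its brightest probe set (Ssc.16231.3.S1_a_at) had signals of 513 and 511.5 on the arrays labelled primordial, 1016.2 and 837.2 in the middle stage, and 776.4 and 820.7 in the last stage. The arrays labelled primordial lay below all 4 others. The difference was 0.83 ± 0.20 for middle minus primordial, or 1.78-fold (limma adjusted p = 0.00839), and 0.62 ± 0.20 for last minus primordial, or 1.54-fold (adjusted p = 0.0402). Here and below, fewer cells of a type and less RNA per cell cannot be told apart in whole follicles.

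A second IGF1 probe set (Ssc.16231.1.S1_a_at) gave 315.2 and 331.3, then 620.3 and 679.7, then 562.6 and 641.9. It showed the same order of the arrays labelled primordial against the rest. The difference was 0.97 ± 0.21 for middle minus primordial, or 1.96-fold (limma adjusted p = 0.00425), and 0.86 ± 0.21 for last minus primordial, or 1.82-fold (adjusted p = 0.012). Between the middle and last arrays neither probe set was called, at -0.20 with a 95% interval of -0.66 to 0.25 and -0.11 with an interval of -0.57 to 0.36.

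Some of the IGF1 calls depended on the scaling. With quantile normalization both middle minus primordial calls held, at 0.67 (limma adjusted p = 0.0263) for the brightest probe set and 0.73 (adjusted p = 0.0192) for the second. The last minus primordial call of the second held with median centring (0.64, adjusted p = 0.0465) and with quantile normalization (0.71, adjusted p = 0.0316). With median centring of each array the middle minus primordial difference was 0.42 (limma adjusted p = 0.136) and 0.56 (adjusted p = 0.0561) for these probe sets, neither of which passed; without middle replicate 1 the first was 0.69 (adjusted p = 0.0628). The adjusted p over all alternatives ranged from 0.00645 to 0.136 and from 0.00345 to 0.0561. The last minus primordial call of the first probe set was lost under 9 of 15 alternatives, with adjusted p from 0.0309 to 0.181, and that of the second without primordial replicate 1 (0.0652) and without primordial replicate 2 (0.0539). The third IGF1 probe set (Ssc.16231.2.A1_a_at) was below the filter, at 11.5 and 29.8, 97.7 and 48.4, and 19 and 68.7, and with no filter none of its differences was called (middle minus primordial 1.27 ± 0.54, adjusted p = 0.116).

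IGF2, the ligand made abundantly in fetal tissues and by theca cells of the follicle in several species, was higher in the last stage than on the arrays labelled primordial in 4 of its 5 tested probe sets. The probe set with the largest difference (Ssc.9365.2.S1_a_at) had signals of 8.7 and 26.2 on the arrays labelled primordial, 99.2 and 86.6 in the middle stage, and 233.7 and 378.1 in the last stage. No stage overlapped another. It rose by 1.75 ± 0.41 between the arrays labelled primordial and the middle arrays, or 3.37-fold (limma adjusted p = 0.00663), and by 3.28 ± 0.41 to the last arrays, or 9.72-fold (adjusted p = 0.000544). The value of 8.7 lies below the pseudocount of 16, which limits the fold.

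The other called IGF2 probe sets had the same order of stage means. Ssc.20525.1.S1_at had 48.8 and 44.3, 124.2 and 120, and 198.9 and 327.1, and differed by 2.12 ± 0.33 for last minus primordial, or 4.34-fold (limma adjusted p = 0.00172). Ssc.9365.3.S1_x_at had 77.7 and 82.1, 165.9 and 76.6, and 321.4 and 270.8, and differed by 1.70 ± 0.36, or 3.24-fold (limma adjusted p = 0.00676). Ssc.9365.5.S1_a_at had 90.8 and 78.2, 100.9 and 111, and 165.3 and 291.5, and differed by 1.24 ± 0.34, or 2.35-fold (limma adjusted p = 0.021). In each of these the last arrays lay above all 4 others. The call of the last was lost without primordial replicate 1 (adjusted p = 0.0601), without primordial replicate 2 (0.095) and without last replicate 2 (0.135), over a range of 0.016 to 0.135, whereas the other 3 stayed called under every alternative that gave a value.

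**Figure D2:**
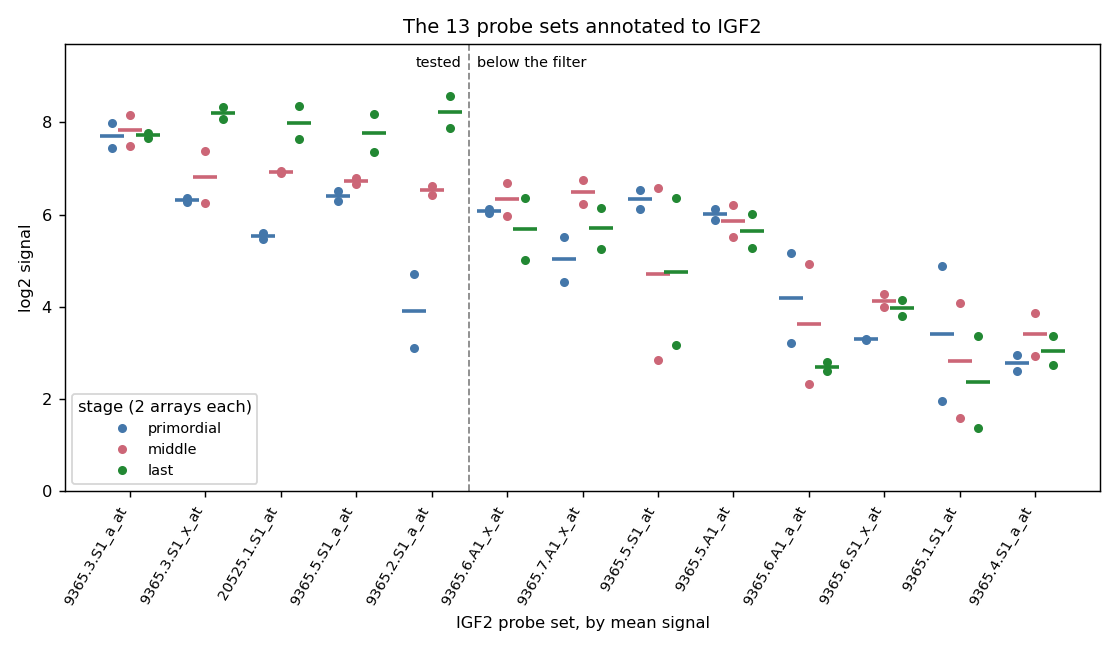
Log2 signal of the 13 probe sets annotated to IGF2, ordered by mean signal, with 1 point per array and a dash at the mean log2 signal of each stage; the dashed line separates the 5 tested from the 8 below the filter. In 4 of the 5 tested probe sets the last arrays stand above the others, while Ssc.9365.3.S1_a_at has overlapping stages.

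The brightest IGF2 probe set did not show this order. Ssc.9365.3.S1_a_at had 174.1 and 253.9 on the arrays labelled primordial, 285.5 and 180.9 in the middle stage, and 203.7 and 217.4 in the last stage, so that all stages overlapped. Its 95% interval for last minus primordial was -0.67 to 0.67 (limma adjusted p = 0.999), which lies below the 1.70 of Ssc.9365.3.S1_x_at. The suffix _a_at marks probe sets whose probes match several transcripts of 1 gene, and _x_at those with probes that can match other transcripts. The difference between these probe sets was not itself tested.

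The middle stage was less settled for IGF2. Of the 5 probe sets, all 5 had a positive difference for middle minus primordial, from 0.11 to 1.75, and 2 were called, Ssc.9365.2.S1_a_at and Ssc.20525.1.S1_at (1.14 ± 0.33, limma adjusted p = 0.019). The latter call was lost with median centring of each array (0.73, adjusted p = 0.0917), with quantile normalization (0.72, 0.105) and without any 1 of the arrays labelled primordial or middle, over a range of 0.0105 to 0.105. From the middle to the last arrays 2 were called, Ssc.9365.2.S1_a_at at 1.53 ± 0.41 (adjusted p = 0.0316) and Ssc.9365.3.S1_x_at at 1.26 ± 0.36 (adjusted p = 0.0397). With no filter on dim probe sets these became 0.0578 and 0.0813, and the ranges over the alternatives were 0.0114 to 0.188 and 0.0196 to 0.174. With median centring of each array, Ssc.20525.1.S1_at and Ssc.9365.5.S1_a_at were called as well in this comparison, at 1.16 (adjusted p = 0.0345) and 1.14 (adjusted p = 0.0389).

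The other 8 IGF2 probe sets were below the filter. Ssc.9365.6.A1_x_at, Ssc.9365.7.A1_x_at, Ssc.9365.5.S1_at and Ssc.9365.5.A1_at had stage means of 34.6 to 91.85, and Ssc.9365.6.A1_a_at, Ssc.9365.6.S1_x_at, Ssc.9365.1.S1_at and Ssc.9365.4.S1_a_at had 6.45 to 22.75. With no filter, limma called 0 of these 8 in any comparison, against 29.3%, 8.78% and 17.4% of all probe sets in the 3 comparisons. Of their differences, 1 had an unadjusted p under 0.05, that of Ssc.9365.7.A1_x_at for middle minus primordial (1.11). Among them, Ssc.9365.5.S1_at varied most between arrays of 1 stage, at 7.2 and 95.8 in the middle stage and 9 and 82.5 in the last stage. No detection call was used here, so it is not known which of these signals are above background.

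IGF1R, the receptor tyrosine kinase that both ligands activate, had its lowest stage mean in the middle stage in both probe sets, with no difference called. Ssc.19009.1.S1_at had 551.5 and 886.9, 341.3 and 572.7, and 707.3 and 787.9. Its middle arrays overlapped those labelled primordial and lay below the last arrays. The differences were -0.64 with a 95% interval of -1.32 to 0.04 for middle minus primordial (limma adjusted p = 0.107), 0.73 with an interval of 0.06 to 1.41 for last minus middle (adjusted p = 0.128) and 0.09 with an interval of -0.59 to 0.77 for last minus primordial (adjusted p = 0.84).

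The other IGF1R probe set, Ssc.16058.1.S1_at, had 223.3 and 329.6, 148.6 and 198.1, and 252.8 and 179.8. Its middle arrays lay below those labelled primordial and overlapped the last arrays. Middle minus primordial was -0.62 with a 95% interval of -1.29 to 0.06 (limma adjusted p = 0.117). These middle minus primordial differences depended on the scaling: with median centring of each array they were -1.06 (adjusted p = 0.0165) and -1.03 (adjusted p = 0.0191), both called, and with quantile normalization Ssc.16058.1.S1_at was called at -0.97 (adjusted p = 0.0283). Without middle replicate 2, Ssc.19009.1.S1_at was called as well (adjusted p = 0.0495). The ranges of adjusted p over the alternatives were 0.0165 to 0.536 and 0.0191 to 0.489.

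IGF2R, which clears IGF2 and sorts lysosomal enzymes, was read by 1 probe set near the filter. Its signals were 58.2 and 109.2 on the arrays labelled primordial, 117.6 and 124.5 in the middle stage, and 70.6 and 82.7 in the last stage. The middle arrays lay above the other 4. No difference was called: middle minus primordial was 0.51 with a 95% interval of -0.33 to 1.34, last minus middle -0.57 with an interval of -1.40 to 0.27, and last minus primordial -0.06 with an interval of -0.89 to 0.77 (limma adjusted p = 0.287, 0.323 and 0.916).

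**Figure D3:**
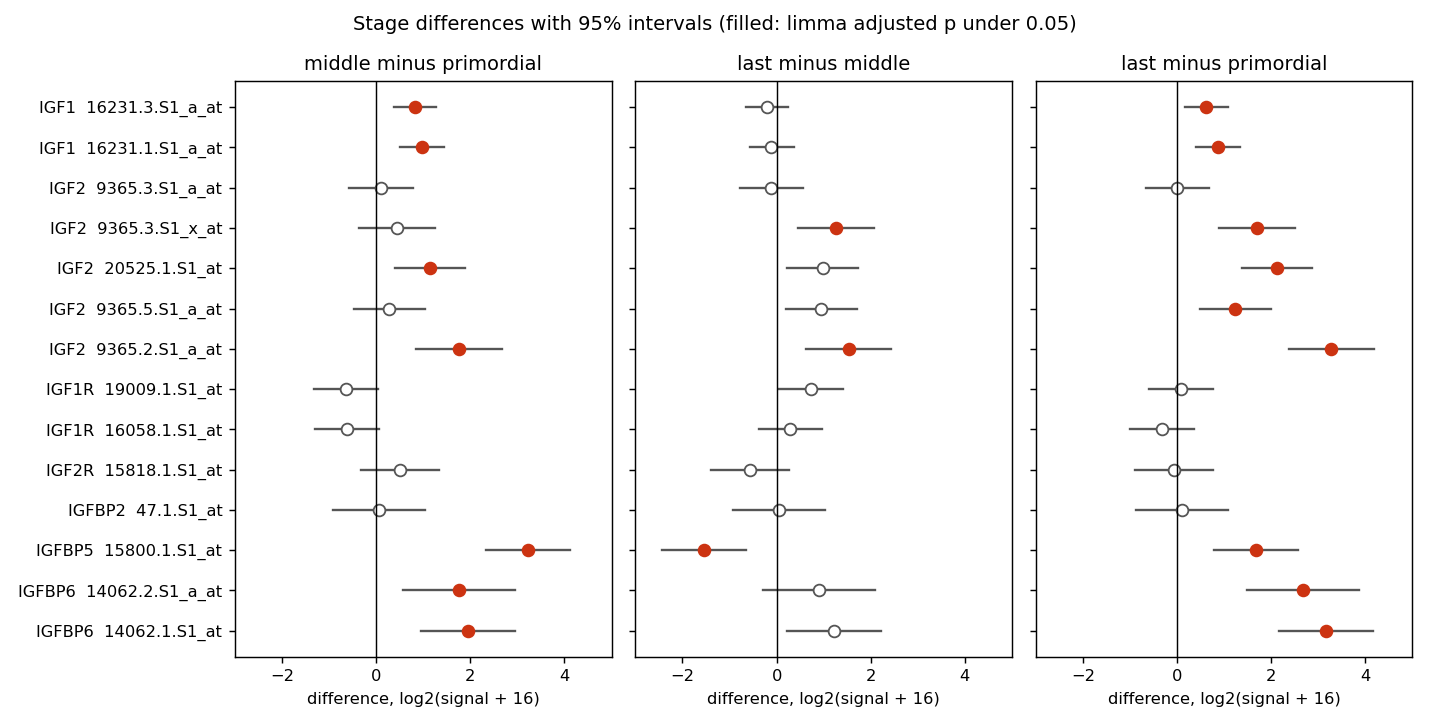
Difference between stages on the log2(signal + 16) scale for the 14 tested probe sets, with the 95% interval of the limma fit; filled points had an adjusted p under 0.05. The called differences are positive except for IGFBP5 between the middle and last arrays (-1.54), and the intervals of IGF1R, IGF2R and IGFBP2 include 0 except that of 1 IGF1R probe set in last minus middle.

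IGFBP5, a binding protein that also attaches to extracellular matrix, had the largest difference among the tested probe sets of the IGF system between the arrays labelled primordial and the middle arrays. Its signals were 24.5 and 22.1 on the arrays labelled primordial, 350.9 and 349.6 in the middle stage, and 69.8 and 168.3 in the last stage. No stage overlapped another, with the middle arrays highest and those labelled primordial lowest. It rose by 3.22 ± 0.40, or 9.32-fold, to the middle arrays (limma adjusted p = 0.000238), a call that held under all 14 alternatives that gave a value, with adjusted p from 6.77e-05 to 0.00718.

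From the middle to the last arrays IGFBP5 fell by 1.54 ± 0.40 on the log2 scale, or 2.91-fold (limma adjusted p = 0.0282). That call was lost with no filter (adjusted p = 0.0568), without middle replicate 1 (0.171), without middle replicate 2 (0.12) and without last replicate 1 (0.121, with a difference of -0.99), over a range of 0.0111 to 0.171. The last arrays remained above those labelled primordial, by 1.68 ± 0.40, or 3.20-fold (adjusted p = 0.0115), a call lost without last replicate 2 (1.13, adjusted p = 0.0677; range 0.00441 to 0.0677).

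IGFBP6, a binding protein known for its preference for IGF2 over IGF1, was higher in the last stage than on the arrays labelled primordial in both probe sets. Ssc.14062.1.S1_at had 9.5 and 6.2 on the arrays labelled primordial, 50.3 and 112.1 in the middle stage, and 199.2 and 196.6 in the last stage. No stage overlapped another. It rose by 1.95 ± 0.44 to the middle arrays, or 3.87-fold (limma adjusted p = 0.00588), and by 3.17 ± 0.44 to the last arrays, or 8.99-fold (adjusted p = 0.000963), and both calls held under all 14 alternatives that gave a value. Signals below the pseudocount of 16 on the arrays labelled primordial limit these folds. The mean signal of this probe set over all arrays, 95.6, was near the filter of 91.3. Of its stage means (7.85, 81.2 and 197.9) only that of the last stage lay above the filter.

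The other IGFBP6 probe set, Ssc.14062.2.S1_a_at, had 22.6 and 136.3, 255.6 and 231.8, and 400.6 and 555.3. The stages again did not overlap, although the pair labelled primordial stood far apart. It rose by 2.67 ± 0.53, or 6.36-fold, from those arrays to the last arrays (limma adjusted p = 0.00517), a call that held under all 14 alternatives that gave a value. Its middle minus primordial difference of 1.76 ± 0.53 (adjusted p = 0.0223) was 0.77 without primordial replicate 1 (adjusted p = 0.0962). That call was also lost without middle replicate 1 (0.123), without middle replicate 2 (0.0928), with median centring of each array (0.0503) and with quantile normalization (0.0586), over a range of 0.000743 to 0.123. Between the middle and last arrays neither IGFBP6 probe set was called, at 1.21 with a 95% interval of 0.22 to 2.21 and 0.91 with an interval of -0.28 to 2.10.

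IGFBP2, a binding protein of follicular fluid, varied more between replicates than between stages. Its signals were 1471.8 and 2355.5 on the arrays labelled primordial, 1418.6 and 2680 in the middle stage, and 1271.9 and 3178.4 in the last stage. All stages overlapped, and in each the array titled replicate 2 was the higher one. Its spread within stages, a pooled SD of 0.71 on the log2 scale, was at the 97.2 percentile of all tested probe sets. Replicate 2 was higher at all 3 stages for 13.3% of tested probe sets. The stage differences were 0.07, 0.04 and 0.11, with 95% intervals of -0.91 to 1.04, -0.93 to 1.02 and -0.87 to 1.09 (limma adjusted p = 0.913, 0.957 and 0.866). These intervals are wide enough to include a change of about 2-fold in either direction. IGFBP2 and IGFBP5 are neighbours in the RefSeq gene table of Sscrofa11.1.

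The count for last minus middle was the least stable. By limma it was 0 of 14 with no filter, with 7 at an unadjusted p under 0.05, where 8.78% of all probe sets tested were called, and 0 of 14 without middle replicate 2, with 5 at an unadjusted p under 0.05, where 10% were called. It was 1 of 14 without middle replicate 1 (5.05% of all) or last replicate 2 (13.5%), and 5 of 14 with median centring of each array (17.8%) or quantile normalization (17.7%). For middle minus primordial it was 4 without middle replicate 1 (30.3% of all). For last minus primordial it was 6 without any 1 of primordial replicate 1 (20.1%), primordial replicate 2 (19%) and last replicate 2 (28.8%). By the F-test for any stage difference, 9 of 14 were called, against 50.3% of all probe sets tested.

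**Figure D4:**
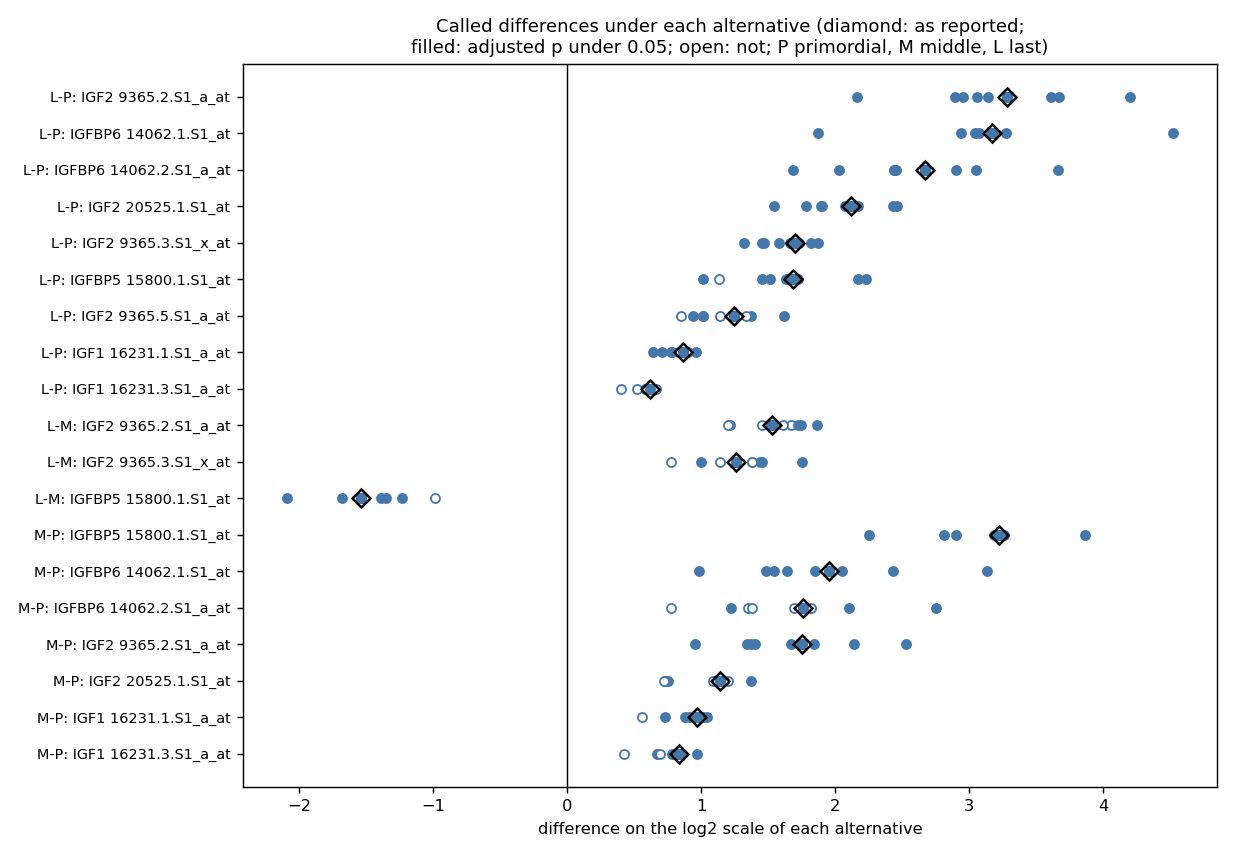
The 19 called differences of the IGF system (rows) under each processing alternative; a diamond marks the value as reported, a filled point an alternative that kept the call and an open point one that did not. Every point lies on the same side of 0 as its diamond, and the last minus primordial rows of IGFBP6 and of 3 IGF2 probe sets hold filled points only.

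Summed signals of marker genes for other cell types also differed between stages, but not all in the same order. The summed signal of 7 stromal fibroblast genes was 864 to 1054 on the arrays labelled primordial, 14210 to 22394 in the middle stage and 17817 to 20904 in the last stage. DCN (15364.3 and 9867.2) made up most of the middle stage sum. Of the 7, 6 had their lowest stage mean on the arrays labelled primordial. So did IGFBP5, both IGFBP6 probe sets, both tested IGF1 probe sets and 4 of the 5 tested IGF2 probe sets. IGFBP2 did too, but its stages overlapped and none of its differences was called. Over all tested probe sets the median difference from those arrays was also positive, 0.22 to the middle and 0.14 to the last arrays. The summed signal of 6 smooth muscle and pericyte genes was 6042 to 6542, 8509 to 9876 and 29864 to 30038. That of 7 endothelial genes was 1658 to 1789, 1016 to 1212 and 2796 to 3689. For 6 theca genes the sum was 6021 to 6390, 3390 to 4699 and 19793 to 22868, but 4 of the 6 had their lowest mean on the arrays labelled primordial, where CYP11A1 (4673.4 and 4310.7) made up most of the sum. That of 10 granulosa genes was 33428 to 45841, 9968 to 14671 and 48058 to 53753, carried by a few bright genes such as INHA and CYP19A3. Of these 10 genes 5 had their lowest mean in the middle stage, where both IGF1R probe sets also had theirs, and AMH had its highest mean there. That of 6 surface epithelium genes was 479 to 600, 1577 to 1620 and 302 to 348. The lowest stage mean was also on the arrays labelled primordial for 9 of 10 oocyte and 4 of 6 smooth muscle and pericyte genes. It was there for 3 of 7 endothelial, 1 of 10 granulosa, 0 of 8 immune and 0 of 6 surface epithelium genes. How many of all tested probe sets had their lowest mean at each stage was not counted. A lowest stage that members share with marker genes is therefore not read as a tie between them. The part of these cell types in the differences was not tested.

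Signs of RNA quality differed too. The actin control had a 3′ signal above its 5′ signal by 3.20 to 3.55 on the log2 scale on the arrays labelled primordial, 4.19 to 4.93 in the middle stage and 3.55 to 3.88 in the last stage. For the GAPDH control the excess was 2.68 to 3.42, 2.78 to 3.28 and 1.86 to 1.89, and for EF1A 0.67 to 1.01, 0.87 to 1.34 and 0.70 to 0.82. Their part in the differences was not tested.

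Genes that cut or shield the binding proteins were mostly lower in the middle stage than on the arrays labelled primordial. Of 20 listed, 16 were on the array and 11 were tested, at 1 probe set per gene. Here 1 was higher and 7 were lower for middle minus primordial, 3 higher and 1 lower for last minus middle, and 2 higher and 4 lower for last minus primordial. Over 5432 genes the shares called higher and lower were 22.9% and 22.5%, 8.8% and 7.23%, and 17.2% and 15.8%. The median difference of the list was -0.66, 0.31 and -0.39, against 0.06, 0.02 and 0.06 over all genes. Immune genes also had their highest summed signal on the arrays labelled primordial, and their part in these counts was not tested.

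STC1, stanniocalcin 1, an inhibitor of the binding protein protease PAPPA, went the other way. It had 319.2 and 295.1 on the arrays labelled primordial, 2276.8 and 2281.5 in the middle stage, and 2594 and 4246.5 in the last stage. It rose by 2.83 ± 0.24 to the middle arrays (limma adjusted p = 3.76e-05) and by 3.37 ± 0.24 to the last arrays (adjusted p = 4.18e-05). PAPPA itself was below the filter, with signals from 52.1 to 148.9 over the 6 arrays.

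The proteases of the list had several patterns. PLAU, urokinase, had 1132.9 and 1373.2, 104.9 and 50.5, and 399.6 and 260.9, and the lysosomal protease CTSD had 8274.1 and 7379, 975.1 and 1348.9, and 1411 and 1827.8. Between the arrays labelled primordial and the middle stage PLAU fell by 3.82 ± 0.33 and CTSD fell by 2.75 ± 0.21 on the log2 scale (limma adjusted p = 3.91e-05 and 2.38e-05). CTSB, another lysosomal protease, fell by 1.33 ± 0.17 (adjusted p = 0.000303). ADAMTS1, a matrix protease of the ovulating follicle, fell by 1.49 ± 0.18 to the middle arrays and rose by 2.36 ± 0.18 from there to the last arrays (adjusted p = 0.000215 and 5.09e-05). ADAM28, a membrane protease that cuts IGFBP3, had 358.3 and 463.2, 286.8 and 316.1, and 72.3 and 96.5, and fell by 1.67 ± 0.26 from the middle to the last arrays (adjusted p = 0.00294).

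**Figure D5:**
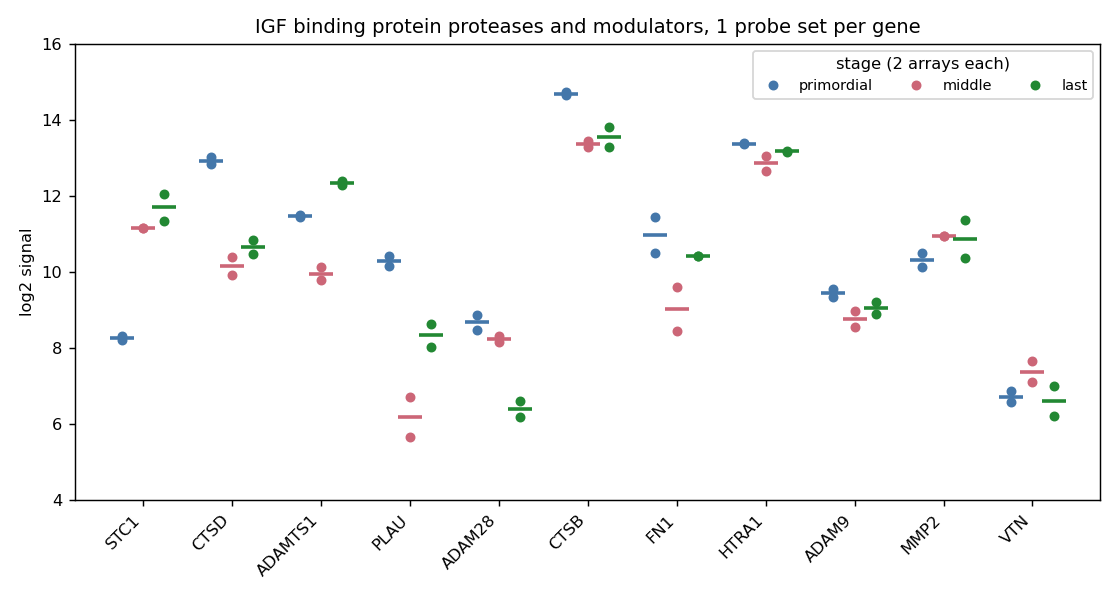
Log2 signal of the 11 tested genes that cut, shield or bind to IGF binding proteins, ordered by the p of the F-test, with 1 point per array and a dash at the stage mean. STC1 is lowest on the arrays labelled primordial (319.2 and 295.1), PLAU lowest in the middle stage (104.9 and 50.5) and ADAM28 lowest in the last stage (72.3 and 96.5).

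Among genes that carry the signal of the insulin and IGF receptors inside the cell, 17 of 37 listed were on the array and 13 were tested. For middle minus primordial 0 were higher by limma, also at an unadjusted p under 0.05, and 5 were lower. They were GRB2, an adaptor that links receptors to RAS, at -2.09 ± 0.22, PTPN1, a phosphatase that turns the insulin receptor off, at -2.11 ± 0.24, RHEB, which activates mTOR, at -1.03 ± 0.17, FOXO1, a transcription factor that insulin signals hold out of the nucleus, at -1.18 ± 0.25, and INPPL1, a lipid phosphatase, at -0.84 ± 0.20. The limma adjusted p of these ran from 0.000117 for GRB2 to 0.00826 for INPPL1. Over 5432 genes the shares called in this comparison were 22.9% higher and 22.5% lower.

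FOXO1 had 4903.7 and 6616.1, 2340.8 and 2678.7, and 4731.2 and 7867.1, so that the middle arrays lay below all others. It was the 1 gene of the list called higher for last minus middle, at 1.28 ± 0.25 (limma adjusted p = 0.00823), where 0 were lower, also at an unadjusted p under 0.05. For last minus primordial 0 were higher, with 1 at an unadjusted p under 0.05, and 3 lower, GRB2, PTPN1 and RHEB. SHC1, an adaptor of the receptor, was not called, at 0.76 ± 0.26 for last minus middle (adjusted p = 0.0719). Over 5432 genes 8.8% were called higher and 7.23% lower for last minus middle, and 17.2% and 15.8% for last minus primordial. The list's median difference was -0.58, 0.40 and -0.14, against 0.06, 0.02 and 0.06 over all genes. INSR, the insulin receptor, and IRS1, a main substrate of both receptors, were below the filter, with signals from 53.1 to 84.2 and from 4.2 to 55.3.

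The mannose 6-phosphate list holds the enzymes, adaptors and cargo of the route that IGF2R serves. All 13 of its 17 genes on the array were tested. For middle minus primordial 8 were lower, for last minus middle 0 were called, with 2 at an unadjusted p under 0.05, and for last minus primordial 8 were lower by limma. In the outer comparisons 0 were higher, also at an unadjusted p under 0.05. The shares over 5432 genes were 22.9%, 8.8% and 17.2% called higher and 22.5%, 7.23% and 15.8% called lower. The medians of the list were -0.68, -0.10 and -0.83. M6PR, the smaller of the 2 mannose 6-phosphate receptors, had 3552.4 and 3729.4, 2436.1 and 2149.5, and 2206.4 and 1862.4, and fell by 0.84 ± 0.18 on the log2 scale from the arrays labelled primordial to the last arrays (limma adjusted p = 0.00648). In the same comparison GNPTAB, which adds the mannose 6-phosphate tag, fell by 1.88 ± 0.19 and the cholesterol carrier NPC2 fell by 1.67 ± 0.23 (adjusted p = 0.000238 and 0.000967). The adaptor GGA2 fell by 1.10 ± 0.22 between the arrays labelled primordial and the middle stage (adjusted p = 0.00315). CTSD and CTSB are in this list too. The summed immune signal was highest on the arrays labelled primordial, where these genes were higher, and its part was not tested.

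Of the growth hormone axis, which drives IGF1 synthesis in the liver, 7 of 8 genes were on the array and 4 were tested. None was higher in any comparison by limma, with 1 at an unadjusted p under 0.05 in last minus middle, and 2, 1 and 2 were lower. Among 5432 genes 22.5%, 7.23% and 15.8% were called lower and 22.9%, 8.8% and 17.2% higher, and 4 genes are few for a comparison with these shares. The medians of the list were -0.30, -0.02 and -0.48. JAK2, the kinase of the growth hormone receptor, had 611.2 and 708.2, 880 and 587.3, and 295.7 and 277, and fell by 1.28 ± 0.24 from the middle to the last arrays (adjusted p = 0.0074). STAT5A, a transcription factor that JAK2 activates, fell by 0.73 ± 0.21 and its relative STAT5B fell by 0.88 ± 0.24 between the arrays labelled primordial and the middle stage (adjusted p = 0.0183 and 0.0131). GHRHR was not called, at 0.59 ± 0.33 for middle minus primordial, and the receptor GHR was below the filter, with signals from 19.2 to 94.2.

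For the gonadotropin and steroid genes of granulosa and theca cells, the response that IGF1 is known to amplify, all 16 listed genes were on the array and 13 were tested. For middle minus primordial 3 were higher and 6 lower, against 22.9% and 22.5% of 5432 genes. For last minus middle 9 were higher and 2 lower, against 8.8% and 7.23%. For last minus primordial 7 were higher and 2 lower, against 17.2% and 15.8%. The medians of the list were -0.68, 1.67 and 0.56. STAR, the cholesterol transporter that starts steroid synthesis, had 31.1 and 22.9, 88.5 and 63.9, and 2487.3 and 1626, and rose by 5.57 ± 0.30 from the arrays labelled primordial to the last stage (limma adjusted p = 1.42e-05). HSD3B1, another steroid enzyme, rose by 3.56 ± 0.41 (adjusted p = 0.000381). NR5A2, CYP19A3 and INHA, granulosa genes, were lowest in the middle stage, with last minus middle differences of 5.84 ± 0.24, 3.12 ± 0.18 and 2.26 ± 0.26 (adjusted p = 5.28e-06, 1.31e-05 and 0.000525), and AMH, a product of small growing follicles, was highest there, with 969.5 and 1763.9 against 198.6 and 273 on the arrays labelled primordial and 106.6 and 112.7 in the last stage (2.41 ± 0.31 for middle minus primordial, adjusted p = 0.000289). Other IGF-named genes on the array were IGFBP1 and IGFALS, 2 of 9 listed, and both were below the filter, with signals from 7.8 to 52.5 and from 7.4 to 31.5.

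The genes with the most similar profile were taken by the Euclidean distance between log2(signal + 16) profiles over the 6 arrays, each centred on its own mean, for the brightest tested probe set of each member. For IGF1 they were TDRD3, CCNG1 and VPS29, at distances of 0.07, 0.09 and 0.13. TDRD3 had 533 and 524.7, 1030 and 840.9, and 816.9 and 871.5, with the same order of stages as IGF1. For IGFBP5 they were TPCN2, ZFYVE16 and ISLR (0.73, 0.76 and 0.81), and for IGFBP6 CAV1, TM4SF1 and NOTCH4 (0.49, 0.68 and 0.77). ISLR had 101.8 and 168.3, 873.7 and 1046.7, and 331.1 and 601.5, with the same order of stages as IGFBP5. CAV1 had 2.6 and 73.3, 169.4 and 133.6, and 296 and 365.3, with the same order of stages as IGFBP6 Ssc.14062.2.S1_a_at. That probe set had 22.6 and 136.3 on the arrays labelled primordial. CAV1, TM4SF1 (26.9 and 120.6) and NOTCH4 (17 and 139.7) shared this split between replicates. The other IGFBP6 probe set did not (9.5 and 6.2), so these neighbours belong to 1 probe set.

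For the members with no called difference at their brightest probe set the nearest genes were ZCCHC9, GTPBP8 and SAG for IGF2 (0.27, 0.30 and 0.31), TMEM40, RNASEK and ATG4D for IGF1R (0.25, 0.26 and 0.28), AAR2, CALM3 and DCLK1 for IGF2R (0.25, 0.26 and 0.28) and GGT1, ARL2 and MRPS23 for IGFBP2 (0.32, 0.47 and 0.47). GGT1 had 200.8 and 269.3, 191.7 and 298, and 146.6 and 365.8, with replicate 2 the higher array at every stage, as for IGFBP2. These distances rest on 6 arrays and carry no test. A shared order of stages or replicates follows from how these genes were picked.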

How the data were processed

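Signals of 6 Affymetrix porcine arrays were used, with stages taken from the titles. The array software was GCOS, per the submitters' processing notes, with no version or setting given there. Deposited values are linear intensity per probe set, to which the authors had applied 1 scaling factor per array (the mean without the lowest and highest 2% was 500.1 on each). Control probe sets (124) were left out. Median signals were 119.3 to 169.9.

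Values were taken as log2(signal + 16), the lowest 40% by mean signal left out, and fitted with limma 3.58.1 in R 4.3.3 (intensity trend, 3 residual and 6.33 prior degrees of freedom, two-sided, Benjamini-Hochberg over 14399 probe sets). The fit was also run on simulated data as a check of the code. Far fewer probe sets were changed there than were called here, so the simulation does not show how the fit behaves on these arrays. Figures used Python 3.11.15 with matplotlib 3.10.9.

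Every probe set of a member was named, up to 6 genes per list by the smallest F-test p, and 3 nearest profiles per member. Lists covered receptor signalling, binding protein proteases and modulators, other IGF-named genes, the growth hormone axis, mannose 6-phosphate sorting, granulosa and theca response, and 8 cell types. Members and lists were chosen with earlier results of these data known. Alternatives were other pseudocounts (1, 64), filters (none, 60%), scalings, a replicate block, no trend, 4 arrays only and leaving out each array. No pairing by replicate number was visible over the tested probe sets: the differences of replicate 2 and 1 correlated between stages at 0.06, 0.03 and -0.05. These values cannot show whether arrays of the same number shared an animal.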

Additional observations from a re-analysis of the deposited data

How the results depend on the processing

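The 14 tested probe sets gave 42 differences. With the lowest 60% of probe sets left out, only 4 of the 14 had a value, of which limma called 2 (middle minus primordial), 0 (last minus middle, 1 at an unadjusted p under 0.05), 2 (last minus primordial) and 2 (F-test), where 51.8%, 19.9% and 38.9% of all probe sets tested were called in the 3 comparisons. For last minus middle the count was 0 with no filter and 5 with median centring of arrays, quantile normalization or no intensity trend. Leaving out 1 array gave 4 to 7, 0 to 2, 6 to 9 and 6 to 8 (F-test) called, and 4356 to 7189, 727 to 2172 and 2730 to 4297 called over all probe sets. The replicate block gave 7, 3 and 8 called; the lost call was that of IGF1 Ssc.16231.3.S1_a_at for last minus primordial (adjusted p = 0.0556), and it changed no other call of the members. Where leaving out 1 array left a stage with 1 array, that array was assumed to vary like those of the other stages.

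Of 600 values under alternatives, 517 kept their direction and side of the threshold, 44 lost a call, 13 gained one and 26 changed sign, all of differences that were not called. For middle minus primordial IGFBP2 was -0.35 with median centring and -0.39 to 0.52 when 1 array was left out; IGF2 Ssc.9365.3.S1_a_at was -0.31 with median centring, -0.25 with quantile normalization and -0.20 to 0.41 when 1 array was left out; Ssc.9365.3.S1_x_at was -0.05 to 0.92 when 1 array was left out, and Ssc.9365.5.S1_a_at -0.13 with median centring and -0.15 with quantile normalization. For last minus middle IGF1 Ssc.16231.1.S1_a_at was 0.08 with median centring, IGFBP2 -0.61 to 0.70 when 1 array was left out, and IGF2 Ssc.9365.3.S1_a_at 0.08 with median centring, 0.05 with quantile normalization and -0.41 to 0.20 when 1 array was left out. For last minus primordial IGF2R was -0.44 to 0.32 when 1 array was left out, IGF1R Ssc.19009.1.S1_at -0.13 with median centring and -0.24 to 0.43 when 1 array was left out, IGFBP2 -0.11 and -0.54 to 0.77, and IGF2 Ssc.9365.3.S1_a_at 0.00 with a pseudocount of 1 and -0.25 to 0.25 when 1 array was left out. The cause of these changes was not tested. Over all probe sets, calls that were higher made up 62.7%, 42.3% and 59.7% of those in the 3 comparisons as deposited, 36.6%, 62.9% and 39% with median centring and 53.2%, 48.5% and 52.3% with quantile normalization, and the median difference was 0.22, -0.07 and 0.14, then -0.20, 0.12 and -0.09, then 0.04, 0.01 and 0.04.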
